A study of Mus musculus with 12 samples.

Results

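The semaphorin, plexin, neuropilin, ephrin, Eph receptor, Slit, Robo, netrin and Unc5 families of axon guidance genes were described in primary tumours of 4 mouse mammary carcinoma lines. Members were taken by their gene symbol alone and needed at least 3 array probesets that carry no other symbol. The families were chosen with earlier results of these data known. The rule found 62 genes among the 15025 genes measured, with 1440 probesets in all and 3 to 49 per gene. They were 18 semaphorins, 8 plexins, 1 neuropilin, 7 ephrins, 14 Eph receptors, 2 Slits, 4 Robos, 4 netrins and 4 Unc5 receptors. Nrp2 and Ntng2 lie on probesets shared between symbols and are not described.

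The groups were the lines 67NR, 168FARN, 4T07 and 4T1, with 3 whole-transcript exon arrays each, hybridized with total RNA of primary tumours. Tumours were grown from cells placed in the mammary fat pad of BALB/c females 3 months old, with 8 mice for 67NR, 11 for 168FARN, 15 for 4T07 and 13 for 4T1, and tumours were removed at a group average of 1 to 2 cm. As background, the lines come from one mouse tumour and differ in spread: 67NR stays at the primary site, 168FARN reaches lymph nodes, 4T07 seeds the lung without visible nodules, and 4T1 forms distant metastases. Each behaviour is represented by a single line, so a difference between lines and a difference between behaviours cannot be told apart. Nothing states that the 3 samples of a line came from separate animals, so the p-values reflect only how far these 3 samples of a line differ, which could be technical. In bulk tumour RNA, fewer cells of a type and less RNA per cell cannot be told apart.

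As background, these families steer growing axons by attraction and repulsion and are used again by vessels, immune cells and epithelia. Secreted class 3 semaphorins act on receptors built of neuropilins and plexins, while transmembrane semaphorins bind plexins directly. Ephrins are held on the membrane and signal on contact through Eph receptor tyrosine kinases, Slits bind Robo receptors, and netrins bind Dcc and Unc5 receptors.

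Levels are log2 signals, and the level of a gene is the median of its probesets on an array. Array medians lay between 7.21 and 7.57, and gene levels of 2 arrays of a line correlated at 0.979 to 0.989. A level under 5.08, the 95th percentile of 331 olfactory receptor genes, is called background here, and folds from or to such levels are not given. Differences that involve such a level are between log2 signals as read and do not measure the size of the change. Of 12 measured epithelial markers, 11 were higher in 4T07 and 11 in 4T1 than in 67NR, with 0 lower. Their mean level was 5.75 to 6.47 on the 67NR arrays and 6.82 to 6.85 in 168FARN, against 8.19 to 9.61 in 4T07 and 8.78 to 9.20 in 4T1. In both 67NR and 168FARN, 2 of the epithelial markers were at background. Of 12 fibroblast markers, 9 were higher in 168FARN than in 67NR (9.93 to 10.08 against 8.36 to 8.78), with 9.22 to 9.77 in 4T07 and 9.24 to 9.60 in 4T1. The mean of 13 skeletal muscle markers was 5.49, 8.02 and 8.95 on 168FARN arrays 1, 2 and 3, and 5.34 to 6.35 elsewhere. The mean of 9 Schwann cell and nerve markers was 6.35 to 6.53 in 67NR, 6.17 to 6.53 in 168FARN, 5.78 to 5.91 in 4T07 and 5.66 to 5.91 in 4T1. Of these markers, 2 were at background in 4T07 and 4 in 4T1. Against 67NR, 1 was higher, 2 lower and 6 not called in 4T07, and 0 higher, 2 lower and 7 not called in 4T1.

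The axon guidance families varied widely between the 4 lines. By limma's F-test with Benjamini-Hochberg adjustment over all genes, 41 of the 62 members (66.1%) differed among the lines at an adjusted p under 0.05, against a background of 42% of all 15025 genes. Of these, 28 (45.2%) had a highest and lowest line mean at least 1 apart on the log2 scale, against 20.6% of all genes. The median distance between the highest and the lowest line mean was 0.94 for members and 0.56 for all genes. Another 13 members passed the test with means less than 1 apart, and 21 did not pass it. Epha3, Epha4, Epha6, Ntng1, Robo2 and Unc5d were at background in every line.

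**Figure D1:**
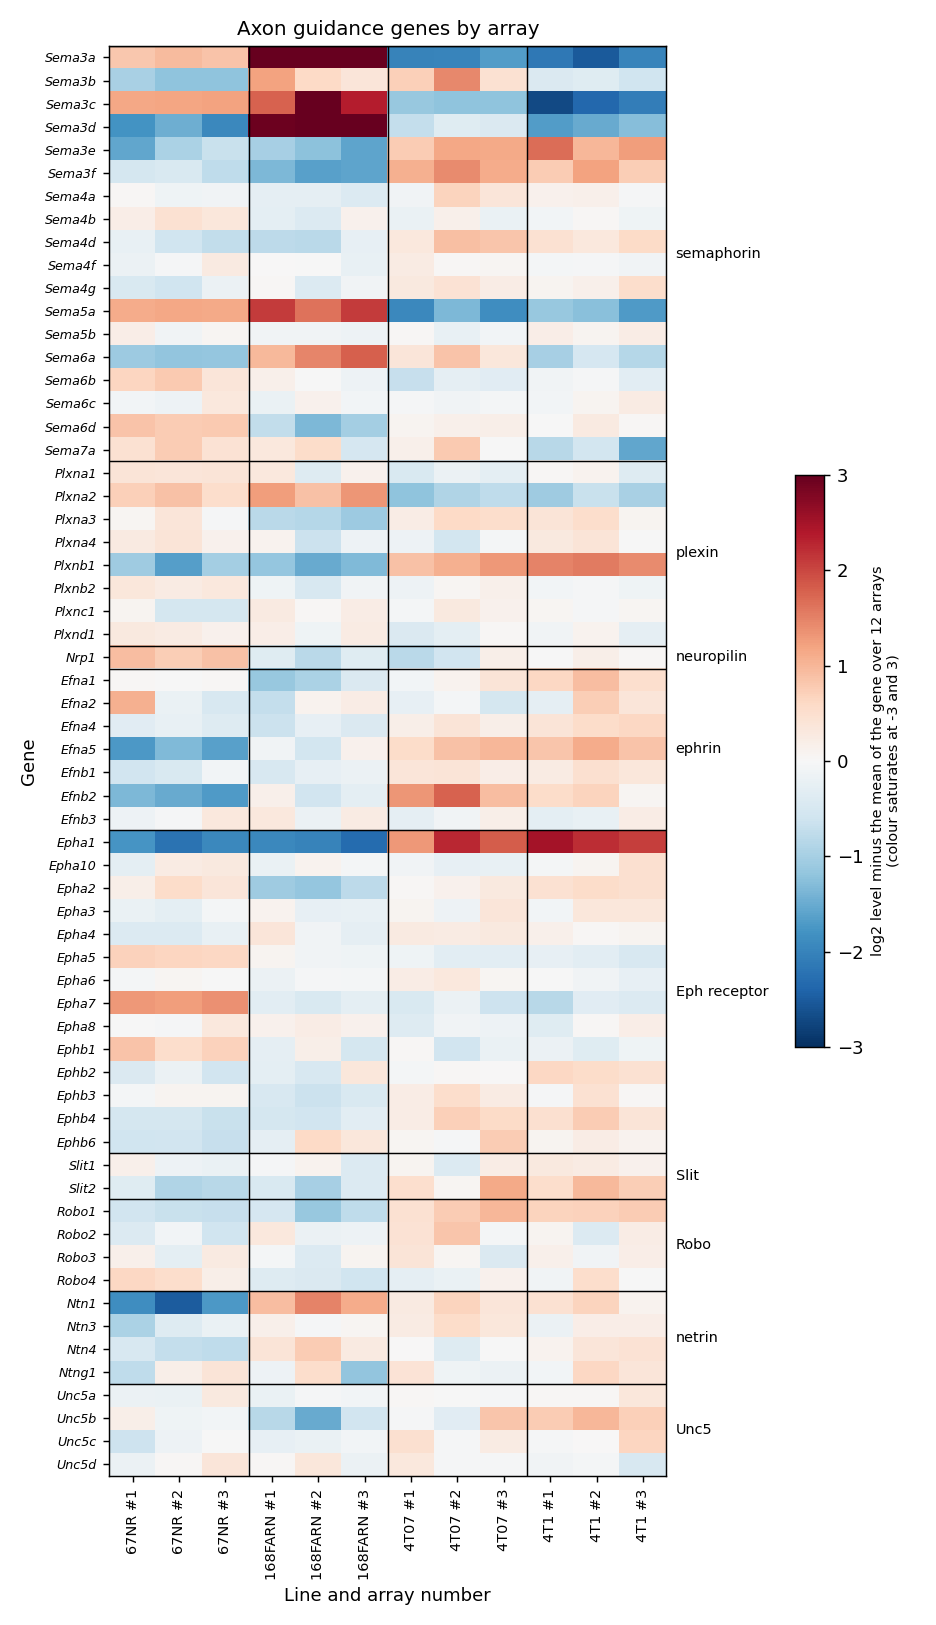
Heat map of the 62 members (rows, by family) on the 12 arrays (columns, by line), where colour gives the log2 level minus the mean of the gene over all arrays and saturates at -3 and 3. The strongest reds are Sema3a, Sema3c and Sema3d in 168FARN, and the columns of 4T07 and 4T1 look alike in most rows.

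Between 168FARN and 67NR, 27 members differed (43.5%, against 24.7% of all genes). Of these, 12 were higher and 15 lower in 168FARN, where 13.5% of all genes were higher and 11.2% lower. In 4T07, 33 differed from 67NR (53.2%, against 23.7% of all genes), 22 higher and 11 lower, against 11% and 12.7% of all genes. The 22 include Epha4 and Robo2, which were at background in every line. The split was 20 higher and 14 lower with quantile normalization, and 19 and 13 with a filter on low probesets. In 4T1, 30 differed from 67NR (48.4%, against 22.3% of all genes), 19 higher and 11 lower, against 9.38% and 13% of all genes. Set against 168FARN, 27 members differed in 4T07 (43.5%, against 28.3% of all genes), 19 higher and 8 lower, where all genes gave 11.4% and 16.8%. In 4T1, 28 differed from 168FARN (45.2%, against 31.2% of all genes), 19 higher and 9 lower, where all genes gave 11.9% and 19.3%. The 5 comparisons share arrays, so they are not independent of each other. Against 67NR, members had a median change of -0.09 (168FARN), 0.14 (4T07) and 0.18 (4T1), beside 0.04, -0.04 and -0.04 for all genes. 168FARN was also represented by array 1 alone, the array whose muscle markers were low. The change from 67NR was then 2.17 in place of 2.34 for Sema3a and 2.96 in place of 3.20 for Ntn1. It was 0.58 in place of 1.20 for Sema3c, and 2.34 in place of 1.85 for Sema3b. The line then rests on a single array, so calls lost in that fit do not measure the part of muscle, which was not tested.

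4T1 and 4T07 differed in 4 members (6.5%), and in 2.38% of all genes. Sema3b, Sema3c, Sema6a and Sema7a were lower in 4T1 and 0 members were higher, against 1.82% and 0.552% of all genes. The count rests on single arrays: it was 2 without 4T07 array 1, 1 without 4T07 array 2, 7 without 4T07 array 3, 1 without 4T1 array 1 and 2 without 4T1 array 3. Of the 7 without 4T07 array 3, 2 were higher and 5 lower in 4T1.

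**Figure D2:**
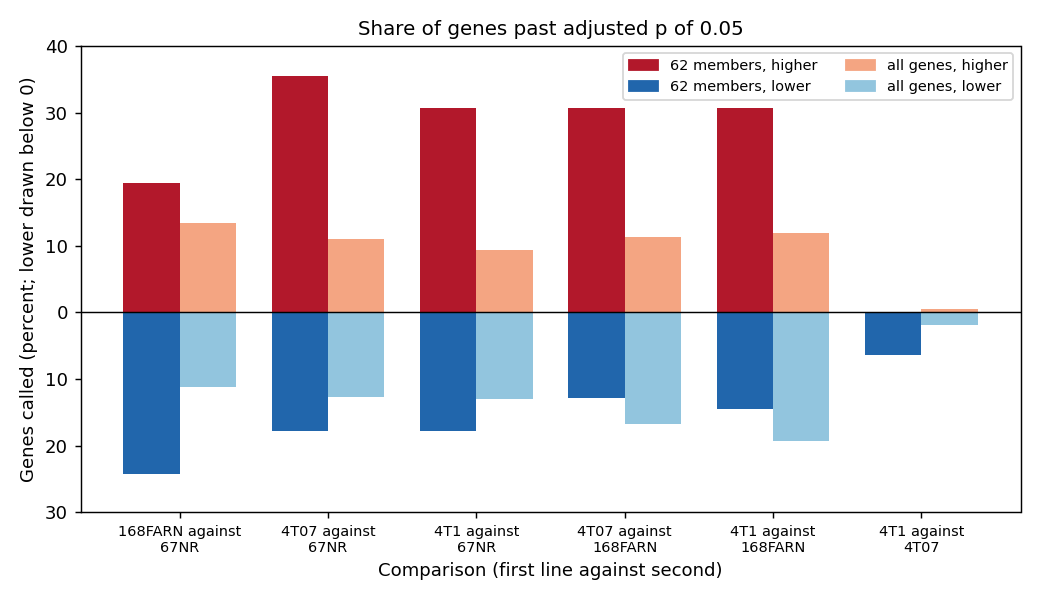
Percent of genes past an adjusted p of 0.05 in each of 6 comparisons of lines, higher drawn above 0 and lower below, with dark bars for the 62 members and light bars for all 15025 genes. In 4T07 against 67NR the members reach 22 of 62 higher beside 11% of all genes, and in 4T1 against 4T07 no member is higher.

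All 6 secreted class 3 semaphorins among the members passed the F-test, which 42% of all genes passed. Sema3a, a repellent of axons and vessels that acts through Nrp1 and A-type plexins, had levels of 9.10, 9.25 and 9.15 in 67NR, 11.33, 11.38 and 11.80 in 168FARN, 6.29, 6.32 and 6.61 in 4T07, and 6.15, 5.76 and 6.30 in 4T1. It was highest on every 168FARN array, in between in 67NR and low in both 4T lines, whose arrays overlapped. The 168FARN mean lay 2.34 (SE 0.18, 5.05-fold) above 67NR (adjusted p = 1.12e-06) and 43.3-fold above 4T1 (adjusted p = 7.33e-10), and 67NR lay 8.57-fold above 4T1 (adjusted p = 7.91e-08). All 23 of its probesets were higher in 168FARN than in 4T1, 22 of them with no overlap of the arrays. Here and below, probesets are counted between the highest and lowest line of a gene, whose level is their median. Such counts describe agreement within a gene and are no separate support for a difference.

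Sema3c, another neuropilin ligand, known for its part in the outflow tract of the heart, had levels of 8.37, 8.40 and 8.42 in 67NR, 8.98, 10.25 and 9.56 in 168FARN, 6.08, 6.01 and 6.01 in 4T07, and 4.51, 4.87 and 5.15 in 4T1. The 4 lines did not overlap, and the mean of 4T1 was at background. It was 2.30-fold higher in 168FARN than in 67NR (log2 change 1.20, SE 0.26, adjusted p = 0.00399) and 5.14-fold lower in 4T07 than in 67NR (adjusted p = 1.96e-05). The call of 168FARN against 67NR was lost with 168FARN array 1 alone (0.58, adjusted p = 0.139). 4T1 lay below 4T07 by 1.19 (adjusted p = 0.0263), a call lost without 4T07 array 1 or 2 or 4T1 array 1 or 2 (adjusted p 0.0725 to 0.135).

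Sema3d, a class 3 semaphorin known from the patterning of heart and vessels, read 3.97, 4.29 and 3.82 in 67NR, 8.71, 10.09 and 9.66 in 168FARN, 5.05, 5.40 and 5.32 in 4T07, and 4.08, 4.25 and 4.48 in 4T1. Its 168FARN arrays stood far above all others, and 67NR and 4T1 were at background. The signals of 168FARN and 67NR differed by 5.46 (SE 0.28, adjusted p = 4.03e-08), with 67NR at background, and all 22 probesets showed it without overlap of the arrays. On 168FARN array 1, where muscle markers were low, Sema3d was lower than on the other 2 arrays of the line, and the difference with that array alone was 4.68 (adjusted p = 2.73e-06). Sema3a gave 2.17 in the same fit (adjusted p = 0.000214). The mean of the 12 fibroblast markers was also highest in 168FARN, but the markers were split. Against 168FARN, 6 were lower and 3 higher in 4T07, and 7 were lower and 4 higher in 4T1. The part of fibroblasts and muscle in the levels of Sema3a, Sema3c, Sema3d and other genes high in this line was not tested.

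Sema3e and Sema3f ran the other way. Sema3e, which binds Plxnd1 without a neuropilin, read 3.77, 4.39 and 4.65 in 67NR, 4.34, 4.11 and 3.74 in 168FARN, 6.10, 6.49 and 6.46 in 4T07, and 7.02, 6.33 and 6.58 in 4T1. It was at background on all arrays of the first 2 lines and above it on all arrays of the 4T lines, with a difference of 2.08 for 4T07 (SE 0.25, adjusted p = 4.24e-05) and 2.37 for 4T1 (adjusted p = 1.38e-05) against 67NR. Sema3f, a neuropilin ligand that prefers Nrp2, had levels of 8.70, 8.76 and 8.45 in 67NR, 7.87, 7.58 and 7.64 in 168FARN, 10.27, 10.63 and 10.33 in 4T07, and 9.97, 10.41 and 9.96 in 4T1. It was lowest on the 168FARN arrays and highest on those of the 4T lines, which overlapped. Sema3f was 6.56-fold higher in 4T07 than in 168FARN (2.71, SE 0.17, adjusted p = 1.67e-07) and 3.42-fold higher than in 67NR (adjusted p = 7.79e-06). Its fall in 168FARN against 67NR (-0.94, adjusted p = 0.00143) was not called with 168FARN array 1 alone (-0.76, adjusted p = 0.0711).

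Sema3b, also a neuropilin ligand, had levels of 6.78, 6.55 and 6.54 in 67NR, 8.96, 8.34 and 8.12 in 168FARN, 8.45, 9.19 and 8.20 in 4T07, and 7.32, 7.38 and 7.16 in 4T1. 168FARN and 4T07 overlapped and stood above the other 2 lines. The gain over 67NR was 3.60-fold in 168FARN (adjusted p = 0.000161) and 3.98-fold in 4T07 (1.99, SE 0.25, adjusted p = 6.99e-05). 4T1 lay 2.51-fold below 4T07 (adjusted p = 0.0127), which was not called without 4T07 array 2 or 4T1 array 1 or 3 (adjusted p 0.0522 to 0.0575).

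**Figure D3:**
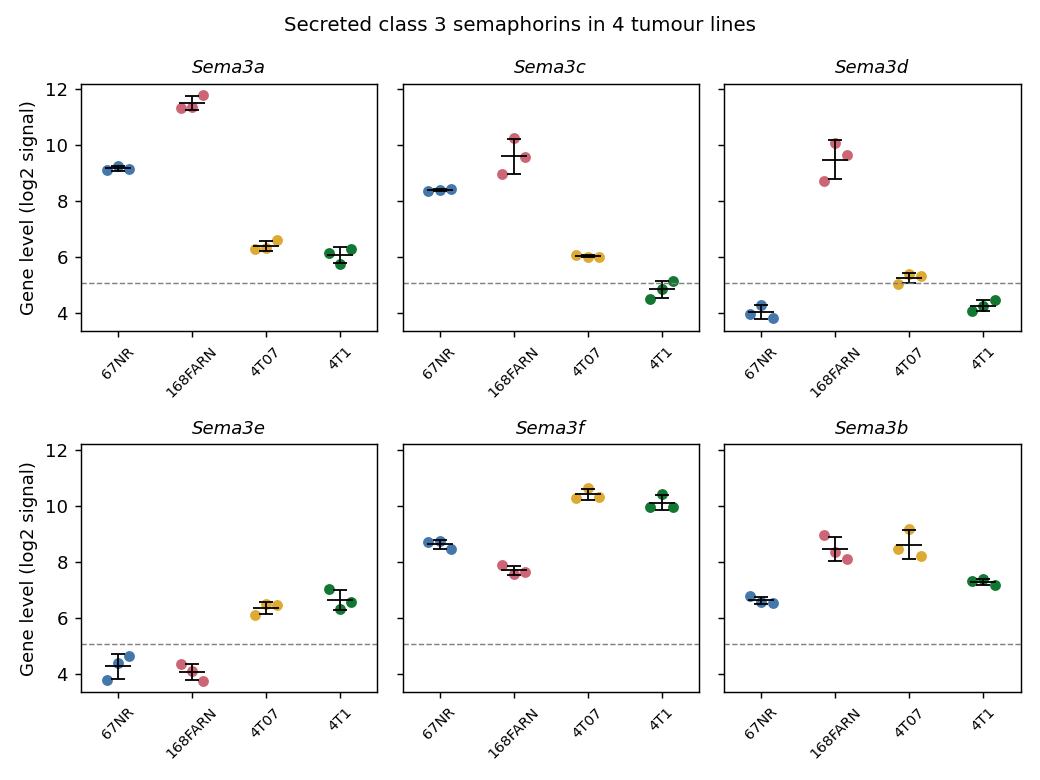
Levels (log2 signal) of the 6 class 3 semaphorins among the members on each array (points, coloured by line), with the mean and SD of 3 arrays in black and the background level of 5.08 as a dashed line. Sema3a, Sema3c and Sema3d peak in 168FARN, while Sema3e and Sema3f are highest in 4T07 and 4T1.

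The genes of Sema3d, Sema3a, Sema3e and Sema3c follow each other on mouse chromosome 5, all on the plus strand, with start sites 1.01, 0.628 and 3.55 Mb apart. Within this stretch of 5.19 Mb, Sema3d, Sema3a and Sema3c were highest in 168FARN, and Sema3e was at background there. Their promoters, the 250 bases before the start site in RefSeq on GRCm38.p6, are shown because the 4 neighbours split into these opposite patterns. Capitals mark matches to CACCTG, the E-box bound by Snail and Zeb factors, to ACGTG, the core of the hypoxia response element, or to TGANTCA, the AP-1 motif, on either strand. These 3 motifs do not contain each other.
Sema3d, chr5:12382916-12383165, plus strand: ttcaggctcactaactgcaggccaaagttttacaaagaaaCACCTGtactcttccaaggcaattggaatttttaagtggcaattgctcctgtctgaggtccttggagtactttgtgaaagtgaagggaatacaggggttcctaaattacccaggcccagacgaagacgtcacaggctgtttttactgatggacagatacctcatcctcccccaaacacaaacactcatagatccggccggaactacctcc
Sema3a, chr5:13396534-13396783, plus strand: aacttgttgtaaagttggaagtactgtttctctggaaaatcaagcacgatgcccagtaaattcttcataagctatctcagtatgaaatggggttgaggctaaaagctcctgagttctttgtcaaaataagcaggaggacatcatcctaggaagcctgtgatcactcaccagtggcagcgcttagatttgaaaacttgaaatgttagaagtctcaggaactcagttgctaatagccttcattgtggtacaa
Sema3e, chr5:14025026-14025275, plus strand: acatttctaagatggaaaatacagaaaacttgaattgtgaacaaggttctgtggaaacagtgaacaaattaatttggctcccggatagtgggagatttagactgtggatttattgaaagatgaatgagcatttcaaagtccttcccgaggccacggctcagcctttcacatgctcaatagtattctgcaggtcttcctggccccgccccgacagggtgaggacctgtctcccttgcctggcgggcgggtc
Sema3c, chr5:17574566-17574815, plus strand: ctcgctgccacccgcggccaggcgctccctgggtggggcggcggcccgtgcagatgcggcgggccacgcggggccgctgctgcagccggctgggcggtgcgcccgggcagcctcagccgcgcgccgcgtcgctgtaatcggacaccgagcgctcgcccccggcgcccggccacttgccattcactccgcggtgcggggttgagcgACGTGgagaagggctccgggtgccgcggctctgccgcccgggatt
CACCTG stood once in the Sema3d window and in 17.2% of 32851 RefSeq promoter windows of this length, and ACGTG stood once in the Sema3c window and in 16.6% of them. TGANTCA was in none of the 4 windows and in 6.7% of all. The Sema3c promoter differed most in composition, with 39 CpG dinucleotides and 78.4% G and C. Sema3d held 4 CpG (46.8% G and C), Sema3a 2 (40.8%) and Sema3e 7 (48%), and the median of all windows was 6. The genes that peaked in 168FARN thus included both the CpG-rich promoter and a pair of CpG-poor ones.

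Among the other semaphorins, 7 of 12 (58.3%) passed the F-test, against 42% of all genes. Sema5a, a transmembrane semaphorin with thrombospondin repeats, had levels of 10.36, 10.42 and 10.39 in 67NR, 11.35, 10.90 and 11.36 in 168FARN, 7.33, 7.92 and 7.39 in 4T07, and 8.12, 8.00 and 7.57 in 4T1. It was high on every 67NR and 168FARN array and low in both 4T lines, which overlapped. The mean of 168FARN was 12.6-fold above 4T07 (3.65, SE 0.20, adjusted p = 5.61e-08), and that of 67NR was 7.17-fold above 4T07 (adjusted p = 5.14e-07). All 32 probesets of Sema5a showed the difference between 168FARN and 4T07 without overlap.

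Sema6a, a ligand of plexins A2 and A4, read 6.54, 6.45 and 6.46 in 67NR, 8.61, 9.09 and 9.43 in 168FARN, 8.01, 8.50 and 7.97 in 4T07, and 6.63, 7.12 and 6.78 in 4T1. No arrays of different lines overlapped, with 168FARN on top and 67NR at the bottom. It was 5.89-fold higher in 168FARN (2.56, SE 0.22, adjusted p = 2.86e-06) and 3.19-fold higher in 4T07 (adjusted p = 8.37e-05) than in 67NR, and 2.49-fold lower in 4T1 than in 4T07 (adjusted p = 0.00532). The step of 0.88 from 168FARN down to 4T07 (adjusted p = 0.00777) was not called with 168FARN array 1 alone (-0.45, adjusted p = 0.307).

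Sema6d, a plexin A1 ligand in heart development, showed the reverse in 168FARN, with levels of 8.99, 8.89 and 8.92 in 67NR, 7.38, 6.78 and 7.12 in 168FARN, 8.21, 8.29 and 8.31 in 4T07, and 8.12, 8.39 and 8.17 in 4T1. All 168FARN arrays were lowest and all 67NR arrays highest. 168FARN lay 3.57-fold below 67NR (-1.84, SE 0.16, adjusted p = 3.71e-06) and 2.25-fold below 4T07 (adjusted p = 0.000125). Sema6b, a plexin A4 ligand, read 8.91, 9.05 and 8.65 in 67NR, 8.43, 8.26 and 8.13 in 168FARN, 7.59, 8.01 and 7.93 in 4T07, and 8.18, 8.24 and 7.95 in 4T1. It was highest on the 67NR arrays and 2.04-fold lower in 4T07 (adjusted p = 0.000486). For 168FARN against 67NR the change of -0.60 (adjusted p = 0.0167) was not called without 67NR array 1 or 2 or 168FARN array 3 (adjusted p 0.0565 to 0.0772).

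Sema4d, the ligand of Plxnb1 that is also known from T cells, had levels of 7.69, 7.30 and 7.16 in 67NR, 7.13, 7.09 and 7.66 in 168FARN, 8.23, 8.81 and 8.75 in 4T07, and 8.35, 8.23 and 8.48 in 4T1. The 2 pairs of lines did not overlap, and lines within a pair did. It was 2.31-fold higher in 4T07 (1.21, SE 0.21, adjusted p = 0.000837) and 1.96-fold higher in 4T1 (adjusted p = 0.00418) than in 67NR. The mean of 8 T and B cell markers was 6.26 to 6.63 in 67NR, 5.96 to 6.57 in 168FARN, 7.07 to 8.22 in 4T07 and 5.78 to 7.51 in 4T1, and their part in the level of Sema4d was not tested.

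Sema7a, a lipid-anchored semaphorin that binds Plxnc1 and integrins, read 10.97, 11.28 and 10.95 in 67NR, 10.83, 11.06 and 10.01 in 168FARN, 10.66, 11.29 and 10.51 in 4T07, and 9.69, 9.97 and 8.96 in 4T1. All 4T1 arrays lay below all others, and the other 3 lines overlapped. 4T1 was 2.88-fold lower than 67NR (-1.53, SE 0.31, adjusted p = 0.00267). It was also called against 168FARN (adjusted p = 0.0153) and 4T07 (adjusted p = 0.0462). The call against 168FARN was lost without 168FARN array 2 (adjusted p = 0.0717) or 4T1 array 3 (adjusted p = 0.0746). That against 4T07 was lost without any array of 67NR, 168FARN array 1, 4T07 array 1 or 2, or 4T1 array 1 or 3 (adjusted p 0.0538 to 0.217), with median centring (0.0702) and with genes of 1 or more probesets (0.0569).

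Sema4g passed the F-test with means 0.72 apart, higher in 4T07 (0.72, adjusted p = 0.00818) and in 4T1 (0.67, adjusted p = 0.0132) than in 67NR. Sema4a, Sema4b, Sema4f, Sema5b and Sema6c did not pass it. The steadiest were Sema6c, with line means within 0.14, Sema4f (0.19) and Sema5b (0.29).

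Of the receptors of semaphorins, Plxnb1 and Plxna2 moved most, in opposite directions. Plxnb1, the receptor of Sema4d, had levels of 5.80, 5.22 and 5.85 in 67NR, 5.71, 5.36 and 5.55 in 168FARN, 7.75, 7.93 and 8.17 in 4T07, and 8.35, 8.43 and 8.29 in 4T1. All arrays of the 4T lines stood above all arrays of the other lines. It was 5.02-fold higher in 4T07 (2.33, SE 0.18, adjusted p = 1.34e-06) and 6.63-fold higher in 4T1 (adjusted p = 3.08e-07) than in 67NR, and 46 of its 47 probesets were higher in 4T1 than in 168FARN. Its ligand gene Sema4d was higher in the same 2 lines.

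Plxna2, which serves class 3 and class 6 semaphorins, had levels of 8.05, 8.21 and 7.85 in 67NR, 8.57, 8.20 and 8.65 in 168FARN, 6.13, 6.43 and 6.56 in 4T07, and 6.26, 6.65 and 6.35 in 4T1. The 4T lines overlapped with each other and lay below the other lines. Plxna2 was 4.30-fold lower in 4T07 than in 168FARN (-2.11, SE 0.18, adjusted p = 2.21e-06) and 3.17-fold lower than in 67NR (adjusted p = 1.79e-05). Plxna3, a receptor for Sema3f with Nrp2, read 7.44, 7.73 and 7.34 in 67NR, 6.56, 6.50 and 6.28 in 168FARN, 7.59, 7.96 and 7.90 in 4T07, and 7.77, 7.89 and 7.45 in 4T1. It was lowest on all 168FARN arrays, 2.08-fold below 67NR (-1.06, SE 0.17, adjusted p = 0.0006) and 2.58-fold below 4T07 (adjusted p = 6.28e-05).

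Nrp1, the co-receptor of Sema3a that also binds VEGF, had levels of 10.29, 10.09 and 10.24 in 67NR, 8.99, 8.55 and 9.00 in 168FARN, 8.54, 8.78 and 9.54 in 4T07, and 9.35, 9.54 and 9.38 in 4T1. The 67NR arrays were above all others. The fall was 2.57-fold in 168FARN (-1.36, SE 0.22, adjusted p = 0.000671) and 2.39-fold in 4T07 (adjusted p = 0.00105). In 4T1 the change was -0.78 (adjusted p = 0.0223), a call lost without 67NR array 1 or 3 or 4T1 array 1 or 3 (adjusted p 0.0597 to 0.0721) and with the mean of the probesets (-0.68, adjusted p = 0.0525). The mean of 15 endothelial markers was 8.11 to 8.36 in 67NR, 7.58 to 7.76 in 168FARN, 7.75 to 8.22 in 4T07 and 7.86 to 8.23 in 4T1, with none at background. The mean of 9 macrophage markers was 10.46 to 10.49 in 67NR and 9.64 to 9.86 in 168FARN, 9.59 to 10.00 in 4T07 and 10.19 to 10.21 in 4T1. The part of these cells in the level of Nrp1 was not tested.

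Of the other plexins, Plxna1 was lower in 4T07 (-0.69, adjusted p = 0.0172) and Plxnb2 in 168FARN (-0.53, adjusted p = 0.0153) than in 67NR. Plxna4, Plxnc1 and Plxnd1 did not pass the F-test, and the line means of Plxnd1, the receptor of Sema3e, were within 0.45. Plxnd1 ranged from 8.67 to 9.40 over the 12 arrays, while its ligand gene Sema3e went from background to above it.

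Of 7 ephrins, 4 were higher in 4T07 (11% of all genes) and 5 in 4T1 (9.38%) than in 67NR, and 0 were lower (12.7% and 13%). Efna5, a membrane-anchored ligand of EphA receptors, had levels of 6.78, 7.18 and 6.87 in 67NR, 8.40, 7.97 and 8.63 in 168FARN, 9.06, 9.38 and 9.50 in 4T07, and 9.34, 9.63 and 9.37 in 4T1. All 67NR arrays were lowest, 168FARN was in between, and the 4T lines overlapped. It was 2.62-fold higher in 168FARN (1.39, SE 0.19, adjusted p = 0.000191), 5.16-fold higher in 4T07 (adjusted p = 1.74e-06) and 5.67-fold higher in 4T1 (adjusted p = 1.03e-06) than in 67NR. All 11 probesets gave the last difference without overlap.

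Efnb2, the ligand of Ephb4 that marks arteries, read 7.44, 7.28 and 7.08 in 67NR, 8.93, 8.21 and 8.49 in 168FARN, 10.12, 10.56 and 9.73 in 4T07, and 9.33, 9.45 and 8.85 in 4T1. 67NR was lowest on all its arrays and 4T07 highest, while 168FARN and 4T1 overlapped. The gain over 67NR was 2.42-fold in 168FARN (adjusted p = 0.0019), 7.30-fold in 4T07 (2.87, SE 0.24, adjusted p = 2.37e-06) and 3.84-fold in 4T1 (adjusted p = 6.41e-05). The difference of -0.93 between 4T1 and 4T07 did not pass (adjusted p = 0.0705).

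Efna1, an EphA2 ligand, read 8.16, 8.11 and 8.16 in 67NR, 6.97, 7.18 and 7.68 in 168FARN, 8.02, 8.22 and 8.51 in 4T07, and 8.73, 9.04 and 8.63 in 4T1. The 168FARN arrays were lowest and the 4T1 arrays highest. Efna1 was 2.88-fold higher in 4T1 than in 168FARN (1.52, SE 0.19, adjusted p = 6.2e-05), and 168FARN lay 1.83-fold below 67NR (adjusted p = 0.00517). The difference of 0.65 between 4T1 and 67NR (adjusted p = 0.0271) was not called without any array of 67NR or 4T1 array 1 or 2 (adjusted p 0.0566 to 0.113). Efna4 (0.56 and 0.84) and Efnb1 (0.68 and 0.72) were higher by less than 1 in 4T07 and 4T1 than in 67NR. Efna2 and Efnb3 did not pass the F-test, and the line means of Efnb3 were within 0.23.

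Among 14 Eph receptors 10 (71.4%) passed the F-test, against 42% of all genes. Epha1, a receptor of A-type ephrins found in epithelia, had levels of 5.21, 4.77 and 5.04 in 67NR, 5.06, 4.98 and 4.67 in 168FARN, 8.28, 9.25 and 8.80 in 4T07, and 9.48, 9.21 and 9.06 in 4T1. Its means were at background in 67NR and 168FARN and far above it in the 4T lines, which overlapped. The signals differed from the background level of 67NR by 3.77 in 4T07 (SE 0.23, adjusted p = 1.44e-07) and by 4.24 in 4T1 (adjusted p = 4.79e-08). All 20 probesets separated 4T1 from 168FARN without overlap. The epithelial markers moved the same way, as given above, and their part in the levels of Epha1, Plxnb1 and the other genes high in the 4T lines was not tested.

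Epha7, an EphA receptor of the developing brain, went the other way, with 5.90, 5.87 and 5.98 in 67NR, 4.28, 4.15 and 4.31 in 168FARN, 4.15, 4.42 and 3.99 in 4T07, and 3.77, 4.28 and 4.20 in 4T1. Only the 67NR arrays were above background, and the other lines overlapped. The differences from 67NR were -1.67 in 168FARN (SE 0.16, adjusted p = 1.09e-05), -1.73 in 4T07 (adjusted p = 6.72e-06) and -1.83 in 4T1 (adjusted p = 3.5e-06). Of 22 probesets, 20 were higher in 67NR than in 4T1 and 15 did not overlap. Epha5 and Ephb1 were also lower in all 3 lines than in 67NR, by 0.70 to 1.00 and 0.90 to 0.94, to means under background.

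Epha2, the receptor of Efna1 with a known role in mammary tumours, read 9.79, 10.17 and 9.98 in 67NR, 8.56, 8.46 and 8.84 in 168FARN, 9.65, 9.76 and 9.91 in 4T07, and 10.08, 10.16 and 10.09 in 4T1. It was lowest on all 168FARN arrays, 2.56-fold below 67NR (-1.36, SE 0.15, adjusted p = 3.48e-05) and 2.81-fold below 4T1 (adjusted p = 9.84e-06). Efna1, its ligand gene, was lowest in 168FARN too. Ephb4, the receptor of Efnb2, had levels of 9.10, 9.08 and 8.95 in 67NR, 9.09, 9.03 and 9.29 in 168FARN, 9.83, 10.34 and 10.19 in 4T07, and 10.09, 10.36 and 10.01 in 4T1. The 4T lines were above the others on all arrays, 2.11-fold in 4T07 (1.08, SE 0.16, adjusted p = 0.000303) and 2.16-fold in 4T1 (adjusted p = 0.000239) against 67NR.

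All 5 EphB receptors and 5 of 9 EphA receptors passed the F-test, against 42% of all genes. Ephb2 was higher in 4T1 than in 67NR by 0.94 (adjusted p = 0.0034), Ephb3 was higher in 4T07 than in 168FARN by 0.86 (adjusted p = 0.00141), and Ephb6, which lacks kinase activity, was higher in all 3 lines than in 67NR by 0.76 to 0.88. Epha4 passed it with levels under background in every line (4.42 in 67NR and 5.04 in 4T07, adjusted p = 0.0129). Epha3, Epha6, Epha8 and Epha10 did not pass, with line means within 0.38.

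Slit2 and Robo1, a ligand and its receptor, were both higher in the 4T lines. Slit2, a secreted repellent, had levels of 5.97, 5.44 and 5.50 in 67NR, 5.88, 5.35 and 5.93 in 168FARN, 6.85, 6.40 and 7.48 in 4T07, and 6.86, 7.32 and 7.09 in 4T1. The 2 pairs of lines did not overlap, with a difference from 67NR of 2.41-fold in 4T07 (1.27, SE 0.26, adjusted p = 0.00301) and 2.74-fold in 4T1 (adjusted p = 0.00124). The difference between 4T07 and 168FARN (1.19, adjusted p = 0.00412) was not called with 168FARN array 1 alone (1.03, adjusted p = 0.0923). All 47 probesets of Slit2 were higher in 4T1 than in 67NR.

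Robo1 read 5.54, 5.45 and 5.44 in 67NR, 5.61, 4.97 and 5.37 in 168FARN, 6.57, 6.89 and 7.12 in 4T07, and 6.79, 6.82 and 6.88 in 4T1. Again the 4T lines overlapped with each other and stood above the others. Robo1 was 2.61-fold higher in 4T07 (1.38, SE 0.18, adjusted p = 8.96e-05) and 2.56-fold higher in 4T1 (adjusted p = 0.000111) than in 67NR. Robo4, the Robo of endothelial cells, was lower in 168FARN than in 67NR by 0.91 (adjusted p = 0.0037), with levels of 7.44 to 7.88 against 6.67 to 6.88, beside the lower endothelial markers of 168FARN, whose part in it was not tested. Slit1, Robo2 and Robo3 did not pass the F-test, and the line means of Robo3 were within 0.21.

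Of 4 netrins, 3 were higher than in 67NR in 168FARN (13.5% of all genes), 4T07 (11%) and 4T1 (9.38%). Ntn4 was at the threshold in 4T07, and Ntn3 was close to it in 168FARN and 4T1. Ntn1, the founding netrin and a ligand of Dcc and Unc5 receptors, had levels of 6.46, 5.82 and 6.59 in 67NR, 9.25, 9.80 and 9.43 in 168FARN, 8.59, 8.98 and 8.69 in 4T07, and 8.78, 8.99 and 8.43 in 4T1. No 67NR array came near those of the other lines. Ntn1 was 9.20-fold higher in 168FARN (3.20, SE 0.23, adjusted p = 5.94e-07), 5.51-fold higher in 4T07 (adjusted p = 5.16e-06) and 5.44-fold higher in 4T1 (adjusted p = 4.74e-06). The 4T lines lay below 168FARN by 0.74 (adjusted p = 0.0262) and 0.76 (adjusted p = 0.0208). The first of these was lost without 168FARN array 2 or 3 or 4T07 array 1 or 3 (adjusted p 0.0512 to 0.11) or with array weights (0.0998), and the second without 168FARN array 2 or 4T1 array 3 (adjusted p 0.0911 and 0.0935).

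Ntn4, a netrin of basement membranes, read 6.18, 5.94 and 5.89 in 67NR, 7.04, 7.42 and 6.93 in 168FARN, 6.66, 6.26 and 6.64 in 4T07, and 6.76, 7.01 and 7.09 in 4T1. All 67NR arrays were lowest. It was 2.19-fold higher in 168FARN (1.13, SE 0.18, adjusted p = 0.000464) and 1.94-fold higher in 4T1 (adjusted p = 0.00147) than in 67NR. The difference of 0.52 for 4T07 was at the threshold (adjusted p = 0.0489) and lost without any array of 67NR or 4T1, 168FARN array 1 or 4T07 array 1 or 3 (adjusted p 0.055 to 0.141). It was also lost with quantile normalization (adjusted p = 0.0854), median centring (0.0766), a filter on low probesets (0.0571), genes of 1 or more probesets (0.055), a trended robust fit (0.0574), array weights (0.133) and the replicate block (0.0706). 4T07 lay below 168FARN by 0.61 (adjusted p = 0.0189), lost without 168FARN array 2 or 4T07 array 2 (adjusted p 0.0847 and 0.0804). Ntn3 was higher than in 67NR by 0.57 in 168FARN (adjusted p = 0.0466), 0.89 in 4T07 (adjusted p = 0.00429) and 0.59 in 4T1 (adjusted p = 0.0441). Ntng1 was at background.

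Unc5b, a netrin receptor of vessels that can trigger cell death without ligand, read 9.18, 8.88 and 8.92 in 67NR, 8.18, 7.49 and 8.44 in 168FARN, 8.98, 8.66 and 9.85 in 4T07, and 9.77, 10.00 and 9.71 in 4T1. The 168FARN arrays were lowest, where its ligand gene Ntn1 was highest. Unc5b was 3.45-fold higher in 4T1 than in 168FARN (1.79, SE 0.29, adjusted p = 0.00039) and 2.18-fold higher in 4T07 (adjusted p = 0.00993), the latter a log2 change of 1.12 that was 0.98 and not called with 168FARN array 1 alone (adjusted p = 0.106). The difference of -0.95 between 168FARN and 67NR (adjusted p = 0.0265) was lost without any array of 67NR or 168FARN array 2 (adjusted p 0.0515 to 0.118). Unc5a, Unc5c and Unc5d did not pass the F-test, with line means of Unc5a within 0.25.

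**Figure D4:**
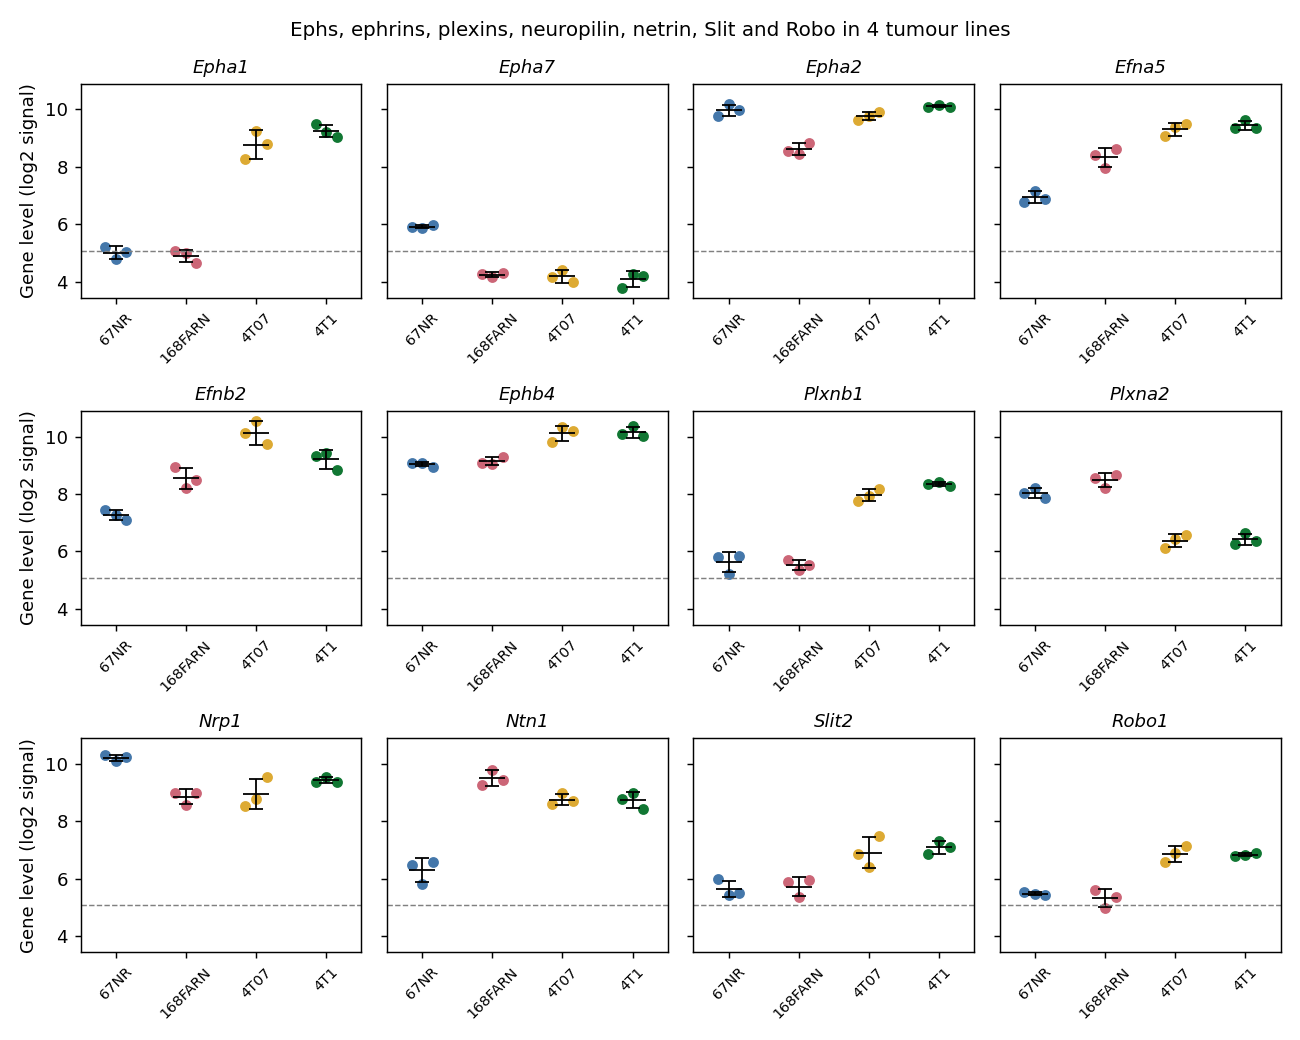
Levels (log2 signal) of 12 members on each array (points, coloured by line), with the mean and SD of 3 arrays in black and the background level of 5.08 as a dashed line. Epha1, Plxnb1, Slit2, Robo1 and Ephb4 are higher in 4T07 and 4T1, Plxna2 is lower there, Epha7 is above background only in 67NR, and Ntn1 is low only in 67NR.

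The patterns crossed the families. In 4T07 and in 4T1 alike, 11 members were higher than in both 67NR and 168FARN, with all 4 contrasts called: Efna4, Efna5, Efnb1, Epha1, Ephb4, Plxnb1, Robo1, Sema3e, Sema3f, Sema4d and Slit2. The same rule held for 3.89% of all genes. In the opposite direction it held for 4 members, Plxna2, Sema3a, Sema3c and Sema5a, and for 4.01% of all genes. A line was set apart where a member was called in 1 direction against each of the other 3 lines with at least a 2-fold difference. For 168FARN these were Sema3a, Sema3c and Sema3d above (1.93% of all genes) and Epha2, Plxna3 and Sema6d below (0.872%). For 67NR they were Epha7 above (1.2%) and Efna5, Efnb2 and Ntn1 below (0.985%). For 4T1 they were Sema3c and Sema7a below (0.28%), with the weak calls against 4T07 given above, and 0 above (0.0799%). 4T07 had 0 in either direction (0.433% and 0.0732% of all genes).

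At the exon level, each probeset was tested for a change unlike that of the rest of its gene, in the 26 members expressed highly enough. limma's diffSplice called at least 1 probeset in any comparison of lines in 12 of the 26 (46.2%), against 19.1% of the 7345 genes tested. A second test, the splicing index, also called the probeset in 8 members (30.8%, against 7.95% of genes). These 8 were Efnb1, Ntn1, Sema3a, Sema3b, Sema3f, Sema5a, Sema6a and Sema6d, with 19 probesets. Members had a median of 22 tested probesets and all genes of 13, so members had more chances of a call. Members also changed more at the gene level, with a median distance between highest and lowest line mean of 0.94 against 0.56 for all genes. The part of either in the higher share of exon calls was not tested. Efnb2, Epha2, Ephb4 and Sema7a were called by diffSplice alone. By diffSplice 5 members were called in 168FARN (6.74% of genes), 5 in 4T07 (5.24%) and 6 in 4T1 (5.8%) against 67NR, 5 in 4T07 (6.73%) and 8 in 4T1 (11.4%) against 168FARN, and 2 in 4T1 against 4T07 (1.8%). By both tests these were 4 (2.37%), 4 (2.71%), 2 (2.79%), 4 (2.7%), 4 (4.85%) and 0 (0.109%).

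Several of these probesets changed little while the rest of the gene changed. In Sema3f, probeset 5338358 read 6.37 ± 0.67 in 67NR, 6.64 ± 0.64 in 168FARN, 6.52 ± 0.40 in 4T07 and 6.56 ± 0.05 in 4T1 (SD, n = 3), while the gene was 2.71 higher in 4T07 than in 168FARN. Its relative change was -2.68 (diffSplice adjusted p = 3.73e-18) and -2.83 by the splicing index (adjusted p = 0.00861). diffSplice uses a shared spread for all probesets of a gene, and it gave false calls for unequally noisy probesets on simulated data. The splicing index uses the same values, so the tests are not independent. Probesets 5598544 and 4367620 of Sema3f moved by 0.23 and 0.61 in the same comparison, and the other 20 were all higher in 4T07.

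**Figure D5:**
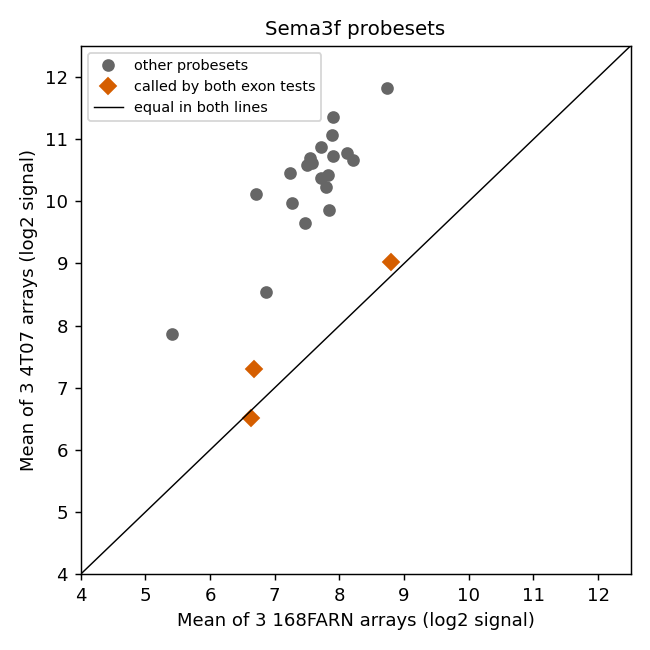
Mean log2 signal of the 23 Sema3f probesets in 168FARN (x axis) against 4T07 (y axis), each over 3 arrays, with the line of equal levels. The 3 diamonds, called by both exon tests, lie on or near the line, and the other 20 lie well above it.

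In Sema3b, probeset 4842529 read 7.38 ± 0.27, 7.33 ± 0.24, 7.37 ± 0.31 and 7.44 ± 0.28 in 67NR, 168FARN, 4T07 and 4T1, while the gene was 1.85 higher in 168FARN than in 67NR (relative change -2.18, diffSplice adjusted p = 8.58e-07). In Sema3b also, probesets 4465555 and 4484149 rose by more than the gene, with changes of 3.33 and 3.17 in 168FARN. In Ntn1, probeset 4312483 changed by 0.71 in 168FARN against 67NR while the gene changed by 3.20 (relative change -2.79, adjusted p = 5.19e-10). Probeset 4891000 of Sema6a stayed within 7.54 to 7.91 over the line means, and the gene rose by 2.56 in 168FARN (relative change -2.48, adjusted p = 2.03e-06). Probeset 5035728 of Sema6d read 6.58 in both 67NR and 168FARN, where the gene fell by 1.84 (relative change 1.84, adjusted p = 1.31e-06). These adjusted p values, all for 168FARN against 67NR, are from diffSplice. By the splicing index they were weaker, at 0.0274 for Sema3b probeset 4842529, 0.000588 for Ntn1, 0.00617 for Sema6a and 0.0124 for Sema6d.

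In Sema3a the 4 probesets called by both tests fell by less than the gene. Another, called by diffSplice alone (splicing index adjusted p = 0.244), fell by more than the gene from 168FARN to 4T07. It read only 4.27 ± 0.93 in 4T07 (SD, n = 3), so the size of its fall is not measured. Probeset 4698401 fell by 4.30 from 168FARN to 4T1, where the gene fell by 5.43 (relative change 1.08, adjusted p = 0.0158). Probeset 4527102 of Sema5a fell by 2.15 from 168FARN to 4T1, where the gene fell by 3.30 (relative change 1.07, adjusted p = 0.00548). In Efnb1, probeset 5526921 rose by 1.78 in 4T07 against 168FARN and the gene by 0.61 (relative change 1.02, diffSplice adjusted p = 0.0142). By the splicing index the adjusted p was 0.00199 for Sema3a probeset 4698401, 0.00175 for the Sema5a probeset and 0.00737 for the Efnb1 probeset. Which exon each probeset covers was not analysed here, and a probeset that responds poorly cannot be told apart from an exon that is not used.

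Other genes of axon guidance, such as receptors of further cues and the proteins that carry the signal to the cytoskeleton, were taken from a list of 79 of which 68 were measured. By the F-test 34 of 68 passed, against 42% of all genes. Against 67NR, 6 were higher and 19 lower in 168FARN, 9 and 13 in 4T07 and 9 and 10 in 4T1. All genes gave 13.5% higher and 11.2% lower in 168FARN, 11% and 12.7% in 4T07, and 9.38% and 13% in 4T1. The list's median changes were -0.09, -0.02 and -0.01, beside 0.04, -0.04 and -0.04 for all genes. The 8 with the largest differences were Dpysl3, Flrt2, Itga3, Flrt3, Rnd2, Tiam1, L1cam and Ngef. Dpysl3, a collapsin response mediator that acts downstream of Sema3a, was 10.77 ± 0.07 in 168FARN against 7.65 ± 0.43 in 67NR (SD, n = 3; limma adjusted p = 7.92e-07), and 7.75 ± 0.39 in 4T07. In 4T1 it was 8.04 ± 0.19. Dpysl3 and Sema3a were both highest in 168FARN, but Dpysl3 was lowest in 67NR, where Sema3a lay above both 4T lines. A link between these genes was not tested. Ngef, an exchange factor that acts behind EphA receptors, was also highest in 168FARN, at 8.10 ± 0.15 against 5.94 ± 0.11 in 67NR (adjusted p = 1.63e-05), as was Rnd2 (9.42 ± 0.77 against 7.80 ± 0.16, adjusted p = 0.00136).

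L1cam, an adhesion molecule that pairs with Nrp1 in Sema3a signalling, was highest in 67NR, at 8.20 ± 0.17 against 5.73 ± 0.20 in 168FARN (adjusted p = 3.79e-07), as Nrp1 was. Flrt2, a ligand of Unc5 receptors, was also highest there, at 9.52 ± 0.16 against 6.43 ± 0.16 in 4T1 (adjusted p = 2.62e-07), while its relative Flrt3 was lowest there, at 5.18 ± 0.20 against 7.80 ± 0.32 in 4T1 (adjusted p = 4.91e-06). Itga3, an integrin subunit, and Tiam1, a Rac exchange factor, had their highest means in 4T1, at 11.98 ± 0.05 and 8.27 ± 0.21. In 168FARN they were at 9.20 ± 0.33 (adjusted p = 1.73e-07) and 5.79 ± 0.16 (adjusted p = 7.03e-07).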

How the data were processed

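The authors deposited log2 signals of exon array probesets, 1 column per array, with the scale read from the range of the values. Their background correction, normalization and summary were not given in the sources used here. Of the probesets, 207232 carry 1 gene symbol in the platform annotation, 3882 several and 16976 none. Of 16207 symbols, 14055 were current, 2111 were updated through RefSeq and 41 were kept. A gene's level was the median of its single-symbol probesets, with at least 3, which left 15025 genes.

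All 12 arrays were fitted with limma 3.58.1 in R 4.3.3 (lmFit, eBayes, 1 mean per line), with an F-test and 6 contrasts. p-values were adjusted by Benjamini-Hochberg over all genes, with a threshold of 0.05. Every adjusted p is from limma. At the exon level, probesets above the 25th percentile of genes above the 50th percentile with at least 4 probesets were tested with diffSplice, with the splicing index as a second test, with a call needing a relative change of 1 or more and the same threshold. Naming only probesets called by both tests was decided after diffSplice gave false calls on simulated data. Scripts were tested on simulated data. Promoters were read from RefSeq tables of GRCm38.p6, which held 53 of the 62 members. Figures were drawn with matplotlib 3.10.9 from tables made in Python 3.11.15 with pandas 2.3.3.

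Values on every array are given for members past the F-test with line means at least 1 apart and a highest mean above background. The others are given by counts, with the steadiest of each family, and the list of other axon guidance genes by up to 8 genes with the largest differences. Members, lists and rules were chosen with earlier results of these data known. The number of arrays limits the precision. Alternatives were other summaries, normalizations, filters and fits, and leaving out arrays.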

Additional observations from a re-analysis of the deposited data

How the results depend on the processing

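The 114 called differences of the 28 members described array by array were refitted under 23 alternatives. Of 2622 refits, 2551 kept direction and call, 71 lost the call and 0 changed direction. The losses with array 1 as the only 168FARN array were 10: Ntn1 (4T07 and 4T1 against 168FARN), Ntn4, Sema6a and Slit2 (4T07 against 168FARN), Sema3c, Sema3f and Sema6b (168FARN against 67NR), and Unc5b (168FARN against 67NR, 4T07 against 168FARN). Members differing from 67NR in 168FARN then numbered 17 in place of 27, with the single array taken to have the spread of the other groups. With a filter on low probesets, which left 60 members, 7 in place of 4 differed between 4T1 and 4T07, 1 higher and 6 lower in 4T1. Leaving out 1 array at a time gave 37 to 41 members by the F-test, 22 to 27 for 168FARN, 31 to 34 for 4T07 and 26 to 32 for 4T1 against 67NR, 25 to 29 for 4T07 and 24 to 30 for 4T1 against 168FARN, 1 to 7 for 4T1 against 4T07, and 29 to 34 other axon guidance genes. By diffSplice the members called were 5, 5, 6, 5, 8 and 2 in the same order of comparisons. Without 1 array they were 5 to 8 (8 without 168FARN array 3), 4 to 7, 3 to 7 (3 without 67NR array 2 or 3), 5 to 8 (8 without 168FARN array 1), 7 to 12, and 0 to 3 (0 without 4T07 array 2 or 4T1 array 3). With no filter on low probesets the first 5 comparisons gave 17, 21, 15, 15 and 22. The splicing index gave 2 for 4T1 against 67NR, 5 for 4T1 against 168FARN and 0 for 4T1 against 4T07. Asking for both tests, an alternative chosen after seeing the data, gave 2, 4 and 0. The top exon calls of Ntn1, Sema3b, Sema3f, Sema6a and Sema6d were kept under every alternative run. The cause of these shifts was not tested, apart from the fewer arrays or members tested. Replicate numbers did not pair the samples (correlations of deviations -0.086 to 0.191). With the replicate number as a block, 39 members passed the F-test, and 27, 32, 31, 27, 29 and 5 the 6 contrasts, and 113 of the 114 differences were kept, all but Ntn4 in 4T07 against 67NR.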
